A study of Mus musculus with 2 samples.

Results

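The Mir143 and Mir145a cluster comprises 2 neighbouring microRNA genes, found here by their symbols, out of 1973 microRNA genes in the count tables. Both had enough reads to be measured, and both were among the 407 genes that reached 10 counts over the 2 libraries. The libraries were prepared from whole limbs of mouse embryos of the B6NCrl strain at 14.5 days of development, and small RNAs under 30 nucleotides were sequenced. There was 1 group of 2 samples, biological replicates 1 and 2, with no treatment, no mutation and no contrast between conditions. Each sample was described as 4 limbs of a single pup, yet the sex was given as pooled and both carried the same donor label. Whether these samples came from separate animals is therefore not settled, and biological and technical differences between them cannot be told apart. The p-values below set these differences against counting noise only, and no spread between replicates enters them.

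A microRNA gene is transcribed as a long primary transcript, from which a hairpin is cut and then trimmed to a mature strand that represses matching mRNAs. Mir143 and Mir145a are the best known microRNA genes of smooth muscle, where serum response factor and its partner myocardin drive their shared primary transcript. In the mouse, both microRNAs favour the contractile state of vascular smooth muscle over the proliferating one, and miR-145 represses the transcription factor Klf4. In a limb such cells lie mainly in the walls of blood vessels, and fibroblasts and other mesenchymal cells can carry these microRNAs too. The tissue was sequenced in bulk, so fewer cells of a type and less RNA per cell cannot be told apart.

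The microRNAs against which the cluster is set below include those of endothelium, mesenchyme and proliferating smooth muscle. The sequences used here held no entry for Mir143 or Mir145a, so theirs are not printed. Mature sequences from RefSeq (GRCm38.p6) are printed for 5 of the comparison microRNAs, the vascular and mesenchymal genes whose levels frame those of Mir143 and Mir145a. They lie on chromosomes 2 (miR-126a), 1 (miR-214), 11 (miR-21a) and X. Bases 2 to 8, the seed that pairs with target mRNAs, are in capitals.
miR-126a-3p: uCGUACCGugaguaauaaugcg
miR-214-3p: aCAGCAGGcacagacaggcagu
miR-21a-5p: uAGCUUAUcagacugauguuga
miR-221-3p: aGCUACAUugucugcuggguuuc
miR-222-3p: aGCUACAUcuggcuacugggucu
miR-221 and miR-222 share a seed, and they are cut from neighbouring genes of the same strand. Among 18 genes with counts in the smooth muscle, mesenchyme and endothelium lists, 16 had a mature sequence in RefSeq. The tables count reads per gene, so the strands of a hairpin are not separated.

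In GRCm38 coordinates both genes lie on the minus strand of chromosome 18. Mir143 (ENSMUSG00000065445.2 in the tables) spans 61649196 to 61649258, a hairpin gene of 63 bases. Mir145a (ENSMUSG00000065592.1 in the tables) spans 61647825 to 61647894, 70 bases long, and lies downstream of Mir143 with 1301 bases between them. GENCODE M21 places both outside any other transcript. The nearest on their strand is Carmn, the long noncoding host RNA of the cluster, which runs from 61649625 to 61665537 on the same strand and ends 366 bases before Mir143. RefSeq draws Carmn further, from 61645878 to 61665538, and both microRNA genes then lie inside it. On the opposite strand the noncoding RNA Bvht, known from heart development, ends 352 bases from Mir145a in M21. Neither hairpin shares a stretch of 22 nucleotides with another annotated microRNA gene.

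Mir143 was among the abundant microRNA genes of the limb and Mir145a was not. Levels are given in CPM, where the own-strand reads of a gene are divided by the library's own-strand total and multiplied by 1000000. That total was 4608816 reads in replicate 1 and 4144385 reads in replicate 2. Mir143 had 40562 counts in replicate 1 and 32886 in replicate 2. These equal 8801 CPM, with a 95% exact Poisson interval from 8716 to 8887, and 7935 CPM, from 7850 to 8021. The intervals do not overlap, so the libraries differed by more than counting error, and replicate 1 was the higher. They cover the counting error of reads only. No molecular identifiers were recorded, so reads copied from the same molecule were not told apart. The mean was 8368 ± 612 CPM (SD, n = 2), which is 0.837% ± 0.0612 of the counts on microRNA genes. Of all sequenced reads, Mir143 took 0.451% in replicate 1 and 0.392% in replicate 2. It ranked 24 by mean level, and 25 and 26 in replicates 1 and 2.

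Mir145a had 776 counts in replicate 1 and 655 in replicate 2. These equal 168 CPM (interval 157 to 181) and 158 CPM (146 to 171). Here the intervals overlap, and the libraries were not separated at this depth. The mean was 163 ± 7.30 CPM (SD, n = 2), which is 0.0163% ± 0.000730 of the counts on microRNA genes. By mean level Mir145a ranked 169, close to the middle of the 333 genes that reached 10 counts in each library, whose median was 177 CPM. Its rank was 166 in replicate 1 and 171 in replicate 2.

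**Figure D1:**
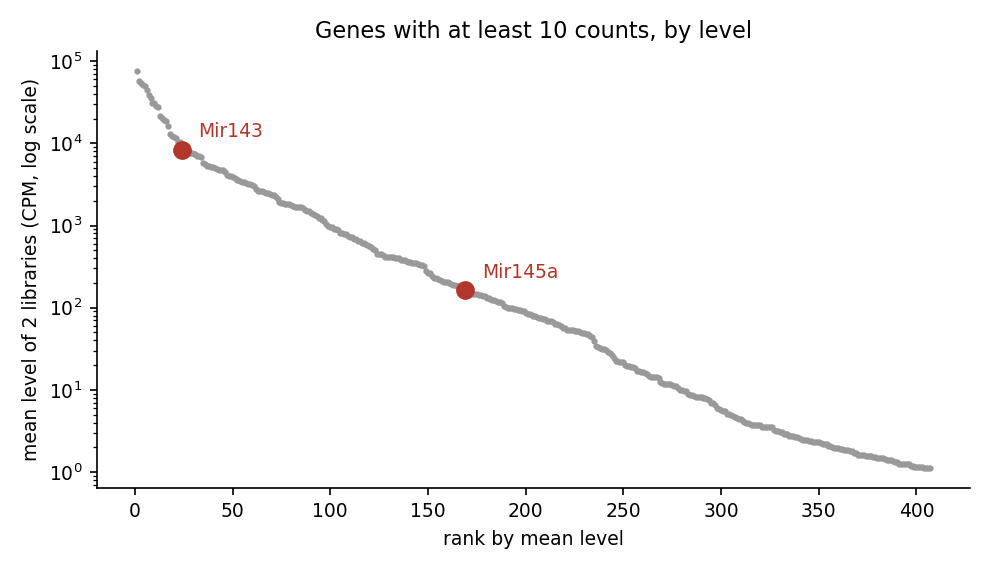
Mean level of the 2 libraries in CPM on a log axis against rank, for the 407 genes that reached 10 counts over both libraries (grey) and the cluster's genes (red). Mir143 sits at rank 24 and 8368 CPM on the steep part of the curve, and Mir145a at rank 169 and 163 CPM.

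All reads of both genes lay on the gene's own strand. The opposite strand held 0 reads at Mir143 and at Mir145a in both libraries, and 3 counts, the floor used for a 0, allow levels of up to 0.651 and 0.724 CPM in replicates 1 and 2. Mir145b, a gene named for its likeness to Mir145a and lying 7373 kb away on the same chromosome, also had 0 counts in both libraries and the same upper limits. The cluster gave 97.7% of all own-strand counts of chromosome 18 in replicate 1 and 97.0% in replicate 2. With opposite-strand reads counted too, its share was 50.2% and 51.4%, because Gm25301 held 8045 ± 911 CPM (SD, n = 2) on its opposite strand, where GENCODE M21 annotates Mir378a. That chromosome has 50 microRNA genes in the tables, of which 6 reached 10 counts over both libraries. Besides the cluster the highest by own-strand counts was Mir187, at 191 CPM in replicate 1 and 222 CPM in replicate 2, which lies above Mir145a in both libraries.

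Although the genes lie side by side, their reads differed widely. Mir143 had 52.3 times the counts of Mir145a in replicate 1, with an exact Clopper-Pearson interval at 95% from 48.7 to 56.2. In replicate 2 the ratio was 50.2, from 46.5 to 54.3. The intervals overlap, so a change of the ratio between the libraries was not resolved. The low counts of Mir145a set their width, so whether the ratio was held cannot be told. The mean ratio was 51.2 ± 1.46 (SD, n = 2), and Mir145a gave 1.92% ± 0.0535 of the reads of the cluster. A ratio within a library does not depend on how libraries are scaled. It compares reads, not molecules, because how evenly different microRNAs are ligated and amplified was not measured.

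The ratio was set beside those of other neighbouring microRNA genes. Genes on a strand with at least 10 counts and gaps of at most 10 kb formed 30 clusters of exactly 2 genes, and the higher gene exceeded the lower by a median of 9.58-fold. The Mir143 and Mir145a ratio, 51.3-fold between mean levels, was the seventh highest. All 6 clusters above it held a gene that shares a stretch of 22 nucleotides with another gene. Reads that align to several places are not given to any gene, so the lower gene of such a cluster may be undercounted. Among the 17 clusters without a shared stretch, a selection made after the values were seen, the median was 5.81-fold and the Mir143 and Mir145a ratio ranked 1.

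The clusters with the largest ratios were Mir99a with Mirlet7c-1 (406-fold), Mir30e with Mir30c-1 (402-fold) and Mir29a with Mir29b-1 (80.8-fold). The ratio of Mir29a rests on 7 and 3 counts of Mir29b-1. The nearest neighbour above Mir143 and Mir145a was Mirlet7d with Mirlet7a-1, at 55.5 in replicate 1 and 48.6 in replicate 2, a range that encloses both values of Mir143 and Mir145a. The nearest below was Mir130b with Mir301b, at 49.3 and 46.7. Both values lie under those of Mir143 and Mir145a, but the counting intervals overlap in each library (44.8 to 54.3 and 42.4 to 51.5). The smallest ratios were those of Mir192 with Mir194-2 (1.29-fold), Mir181c with Mir181d (1.31-fold) and Mir15a with Mir16-1 (1.41-fold).

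The order along the strand did not separate high from low genes. The upstream gene was the higher one in 16 of 30 clusters, Mir143 among them. Between the libraries, the log2 ratio within the Mir143 and Mir145a cluster differed by 0.06, against a median absolute difference of 0.10 over the 30 clusters, and 9 clusters differed by less. As a single unit Mir143 and Mir145a summed to 8531 ± 620 CPM (SD, n = 2). That placed them at rank 25 of 293 units, and at rank 14 of the 44 units with more than 1 gene. A unit is a gene or a cluster formed by position, and shared transcription was not measured.

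**Figure D2:**
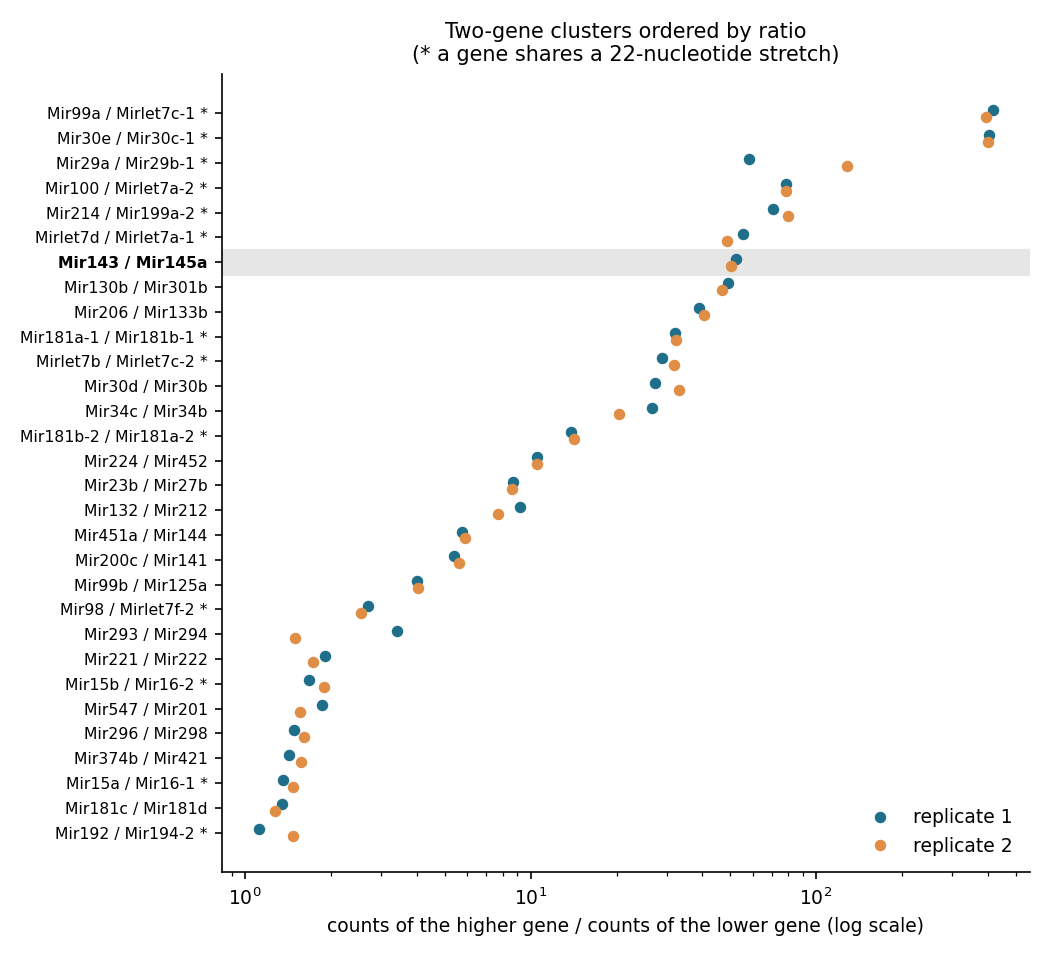
Counts of the higher gene over counts of the lower gene on a log axis, for the 30 clusters of 2 genes in replicate 1 (blue) and replicate 2 (orange). The Mir143 and Mir145a cluster (grey band) lies at 52.3 and 50.2, and the 6 clusters above it are marked with an asterisk for a shared stretch.

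The sum of the cluster was next compared with lists of microRNAs known from other cells of the limb or from smooth muscle, with the same limit that sums compare reads. In replicates 1 and 2 the cluster summed to 8969 and 8093 CPM. The endothelial gene Mir126a, hosted by Egfl7 in vessel lining, had 18963 and 19268 CPM. The cluster was thus at 0.473 and 0.420 times the endothelial level, lower in both libraries. It was also lower than the mesenchymal list of Mir214 and the Mir199 genes, of which Mir214 and Mir199a-2 come from the noncoding gene Dnm3os. The list summed to 30440 and 34848 CPM, so that the cluster stood at 0.295 and 0.232 times that list. Mir214 carried most of it at 31163 ± 3130 CPM (SD, n = 2), followed by Mir199b at 1033 ± 18.9 CPM and Mir199a-2 at 414 ± 7.14 CPM. The 3 Mir199 genes share sequence, and their counts are lower limits.

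MicroRNAs that promote proliferation of smooth muscle summed close to the cluster in singly aligned reads. The 8 of 9 listed genes in the tables were all detected, together 8749 and 8426 CPM in replicates 1 and 2. The cluster was 1.03 times that sum in replicate 1 and 0.960 times in replicate 2, and neither was higher in both. Mir24-2, Mir26a-1 and Mir26a-2 share sequence with other genes, so their counts and the list sum are lower limits, and the true order is unknown. Mir21a, which is induced in injured vessels, led the list at 7520 ± 229 CPM (SD, n = 2). Mir31 followed at 352 ± 10.1 CPM and Mir24-2 at 261 ± 4.39 CPM. Mir221 and Mir222, whose shared seed is shown above, reached 211 ± 7.79 CPM and 116 ± 3.21 CPM. Mir145a, at 163 CPM, lay between these genes in both libraries, while Mir143 was 40.7 and 38.7 times Mir221 in replicates 1 and 2.

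The list of genes tied to smooth muscle differentiation, other than the cluster, summed to 3752 and 3075 CPM in replicates 1 and 2, and the cluster was 2.39 and 2.63 times as high. Mir10a, which lies in the HoxB cluster, led it at 3062 ± 514 CPM (SD, n = 2), followed by Mir204 at 350 ± 34.8 CPM. The muscle genes Mir133a-1, Mir133a-2 and Mir1a-1 had 1 or 2 counts each, at or under the floor of 3 counts. They share sequence with near-identical copies, so these counts and the list sum are lower limits. The order of the cluster and this list holds for singly aligned reads only. Mir1a-2, Mir24-1, Mir126b and Mir142 were not analysed here.

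Skeletal muscle microRNAs summed below the cluster in both libraries. The list reached 6565 and 4789 CPM in replicates 1 and 2, and the cluster was 1.37 and 1.69 times as high. Mir206, which belongs to embryonic and regenerating skeletal muscle, led it at 5226 ± 1152 CPM (SD, n = 2), ahead of Mir499 at 195 ± 47.9 CPM and Mir133b at 132 ± 32.7 CPM. Of the 8 genes counted, 3 share sequence with near-identical copies, so the sum is a lower limit and the order holds for singly aligned reads only.

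Cartilage and surface epithelium stood far above the cluster. The cartilage list of Mir140 and Mir455, at 57289 ± 2418 CPM and 4072 ± 129 CPM (SD, n = 2), was 6.64 and 7.80 times the cluster sum in replicates 1 and 2. The epithelial list was 7.18 and 6.66 times as high, led by Mir203 (35988 ± 6258 CPM), Mir205 (12888 ± 848 CPM) and Mir429 (5062 ± 35.4 CPM). Blood lists stood far below. The cluster was 16.4 and 19.4 times the erythroid sum of Mir451a (405 ± 77.4 CPM), Mir144 (69.6 ± 14.5 CPM) and Mir486 (8.03 and 7.96 CPM in replicates 1 and 2). Mir486 shares sequence with another gene, so that sum is a lower limit. The cluster was 15.0 and 12.3 times the leukocyte sum of Mir223 (354 ± 11.1 CPM), Mir155 (262 ± 29.8 CPM) and Mir150 (11.1 ± 0.624 CPM). That sum covers 3 of 4 listed genes, without Mir142, so the full list may stand higher. The liver, gut and endocrine list, with Mir375 (456 ± 98.2 CPM), Mir192 (86.5 ± 14.6 CPM) and Mir194-2 (66.9 ± 1.77 CPM) in the lead, summed lower, with the cluster 16.7 and 11.5 times as high. Mir194-1 and Mir194-2 share sequence, so that sum is a lower limit too. No test across lists was made with 2 samples.

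**Figure D3:**
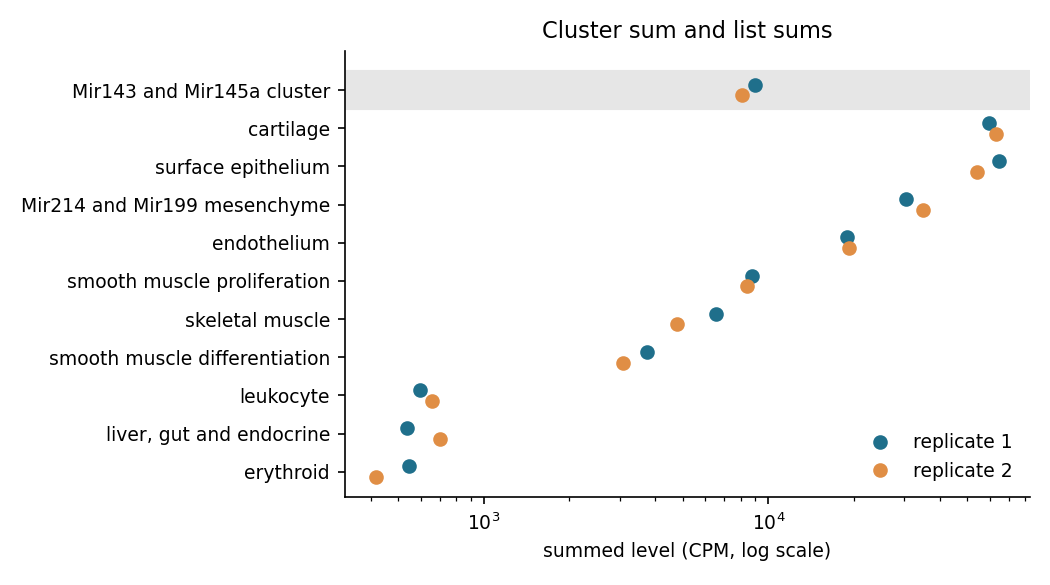
Summed level in CPM on a log axis for the Mir143 and Mir145a cluster (grey band) and 10 lists of microRNAs, in replicate 1 (blue) and replicate 2 (orange). The cluster, at 8969 and 8093 CPM, overlaps the smooth muscle proliferation list, lies under the endothelium, mesenchyme, epithelium and cartilage lists and over the others. All sums hold singly aligned reads only.

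The genes nearest in level to each member were found by the distance of log2 CPM over the 2 libraries, which with 2 samples measures likeness of level and of 1 difference. Nearest to Mir143 were Mir431 at a distance of 0.11, Mir351 at 0.13, Mir379 at 0.17, Mir652 at 0.17 and Mir21a at 0.22. Mir431 and Mir379 belong to the imprinted Dlk1-Dio3 locus of chromosome 12, and Mir351 to the X-linked cluster of Mir322. Mir431 had 8825 and 7374 CPM in replicates 1 and 2, and Mir379 had 8116 and 7283 CPM. Mir351, at 8065 and 8059 CPM, and Mir652, at 7912 and 8388 CPM, also overlapped the range of Mir143. Mir21a, at 7682 and 7358 CPM, lay under both values of Mir143.

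Nearest to Mir145a were Mir673 at 0.07, Mir700 at 0.11, Mir377 at 0.13, Mir1306 at 0.19 and Mirlet7a-2 at 0.23. The first 4 overlapped the range of Mir145a, for example Mir673 with 167 and 150 CPM and Mir700 with 159 and 167 CPM in replicates 1 and 2. Mirlet7a-2, at 144 and 150 CPM, lay under both values of Mir145a, and it shares sequence with other let-7 genes.

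**Figure D4:**
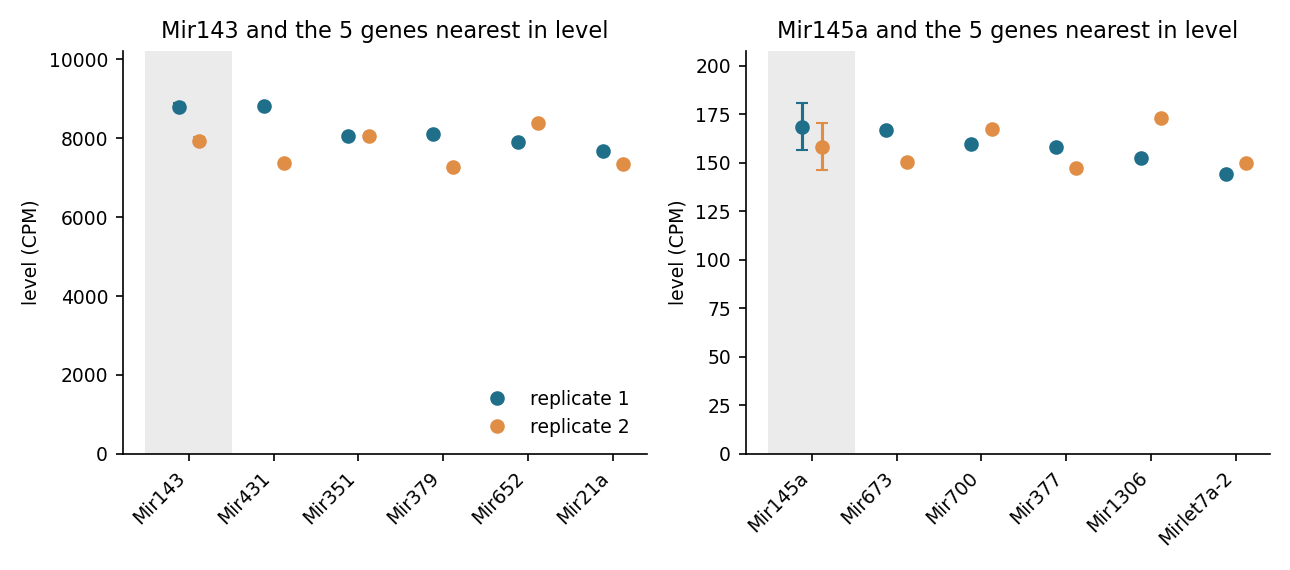
Level in CPM of Mir143 (left panel) and Mir145a (right panel), each on a grey band, and of the 5 genes nearest to it, in replicate 1 (blue) and replicate 2 (orange), with bars for the 95% exact Poisson intervals of the cluster's genes. Replicate 1 is the higher library for both cluster genes, and the intervals of Mir145a overlap while those of Mir143 do not.

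Both genes were somewhat higher in replicate 1, and the difference was called for Mir143 alone. Mir143 had a log2 ratio of 0.15 (replicate 1 over replicate 2), or 1.11-fold, with an adjusted p of 3.94e-43 by a two-sided exact binomial test with Benjamini-Hochberg adjustment over the 407 genes. Mir145a had a log2 ratio of 0.09, or 1.07-fold, with an adjusted p of 0.438 by the same exact test. With TMM factors its log2 ratio was 0.15 and with DESeq2 size factors 0.16 (adjusted p = 0.127 and 0.0938, same exact test). That 1 of the 2 genes was called stands against 35.6% of the genes tested, where 15.7% were called as higher in replicate 1 and 19.9% as lower. That Mir143 passed and Mir145a did not does not show that they moved apart or together. A change of their ratio was not resolved at the depth of Mir145a. The test sets the reads of these 2 libraries against counting noise and does not compare conditions.

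In CPM, the difference of Mir143 was not large among genes of its level. Of 29 other genes within 2-fold of its mean, 25 were called and 12 had a larger absolute log2 ratio, with a median of 0.13. Of 54 genes within 2-fold of Mir145a, 22 were called and 32 had a larger absolute log2 ratio, with a median of 0.12. TMM and DESeq2 factors, with which Mir143 was at 0.21 and 0.22, were not used for these comparisons. Over all 407 genes the median log2 ratio was -0.04, and 175 genes were higher in replicate 1. The skeletal muscle genes with at least 10 counts were higher in replicate 1 for 5 of 5, and Mir206 had a log2 ratio of 0.45. So were 7 of 7 surface epithelium genes, with a median log2 ratio of 0.12, and 3 of 3 erythroid genes, with a median of 0.39. The endothelial gene Mir126a was at -0.02 and Mir214 at -0.21. Of the 4 genes of the Mir214 and Mir199 list, 2 were higher in replicate 1, with a median log2 ratio of -0.003. Among smooth muscle genes, 4 of 8 for proliferation and 1 of 2 for differentiation were higher there, with medians of 0.01 and 0.07. For cartilage it was 0 of 2 (median -0.08), for leukocytes 1 of 3 (-0.06), and for liver, gut and endocrine genes 1 of 4 (-0.39). The part of tissue makeup in the difference of Mir143 was not tested.

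**Figure D5:**
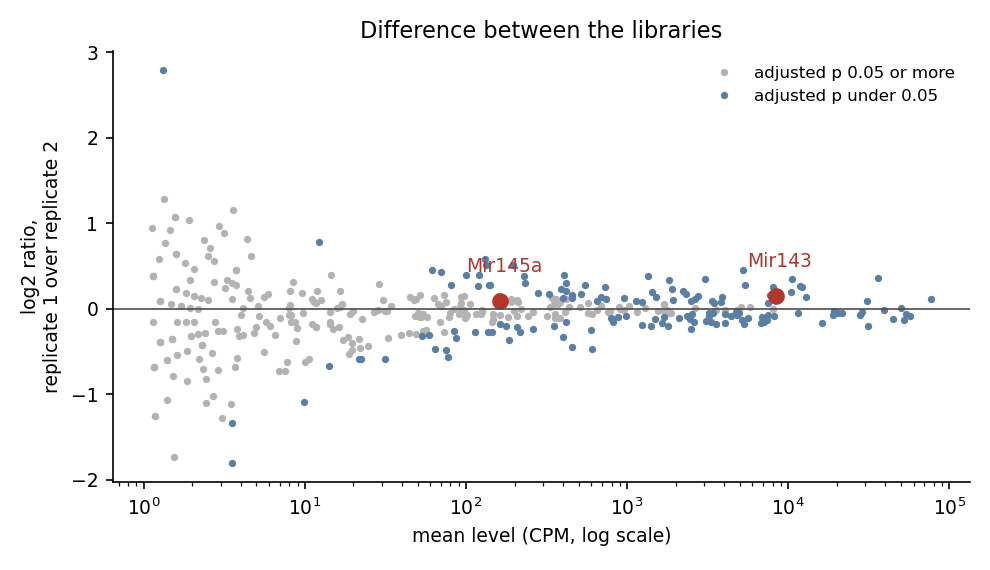
Log2 ratio of replicate 1 over replicate 2 against mean level in CPM on a log axis, for 407 genes, with genes at an adjusted p under 0.05 in blue, the others in grey, and the cluster's genes in red. Mir143 (0.15) and Mir145a (0.09) lie close above 0, inside the band of genes of like level.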

How the data were processed

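Small RNA libraries of 2 whole-limb samples of 1 group were analysed. The authors deposited 1 table a sample with unnormalized read counts for each gene. Per the texts deposited with the tables, reads were aligned to mm10 and counted on GENCODE M4. The aligner and counter are not given in the sources used here. The tables have 3 count columns without a header, taken from their values as counts on either, own and opposite strand, and own-strand counts were used. Tally rows stayed out of library sizes. Unmapped reads were 12.8% and 13.7% of all reads in replicates 1 and 2, reads with several alignments 31.8% and 32.6%, and reads on no gene's own strand 4.19% and 4.31%. Names and positions came from GENCODE M21, which matched 1894 of 1973 gene identifiers, and the version number of both cluster genes differs between M4 and M21. The gene of miR-146a was matched under its symbol Mir146 by RefSeq synonyms.

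Counts were scaled to CPM. A quasi-likelihood test was not possible with 1 group, so libraries were compared by an exact binomial test. Log2 ratios had a prior count of 0.5, genes had at least 10 counts in total, and calls had an adjusted p under 0.05. The test was tried on simulated data that held counting noise only. Its behaviour under other spread between libraries was not tested. Named genes were the cluster's genes, the 5 genes nearest in level to each, the 3 highest genes of each list, the 3 largest, 3 smallest and adjacent ratios among 2-gene clusters, and neighbours within 1 Mb. The part of the rule on shared seeds was not applied to the cluster's genes, because the sequences used held no entry for them. Genes that share their seeds were therefore not sought. Members and lists were chosen with earlier results of these data known. Alternatives were TMM and DESeq2 scaling, other count filters, gaps, strands and totals. Python 3.11.15, scipy 1.17.1, pandas 2.3.3, numpy 2.4.6, matplotlib 3.10.9, R 4.3.3, edgeR 4.0.16 (TMM factors) and DESeq2 1.42.0 (size factors) were used.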

Additional observations from a re-analysis of the deposited data

Results flagged for a closer look

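Of the 5 other microRNA genes within 1 Mb of the cluster, Gm25301 carried signal outside the own-strand counts. It had 40047 and 30671 opposite-strand reads in replicates 1 and 2, or 8045 ± 911 CPM (SD, n = 2), and 0 on its own strand. That level, close to the 8368 CPM of Mir143, exceeds the upper limits of a 0 count, 0.651 and 0.724 CPM, and GENCODE M21 annotates Mir378a on the opposite strand there. The gene lies 249.9 kb from the cluster. The other 4 neighbours held 0 counts, except Mir6983 with 3 counts in replicate 1.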

How the results depend on the processing

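With the total widened to hold multiply aligned reads, the level of Mir143 was 5103 CPM, that of Mir145a 99.5 CPM and their sum 5203 CPM, by construction, since this alternative only enlarges the total. TMM factors, DESeq2 size factors and counts on either strand moved these 3 levels by less than 1 SD. The rank of the ratio among 2-gene clusters was 6 to 8 with gaps of 5 or 50 kb or at least 100 counts, and 1 among clusters without a shared stretch, an alternative chosen after seeing the data that leaves fewer clusters. In single libraries (leaving out each replicate) Mir143 ranged from 7935 to 8801 CPM, Mir145a from 158 to 168 CPM, the sum from 8093 to 8969 CPM and the ratio from 50.2 to 52.3. The log2 ratio of Mir143 was 0.15 to 0.22 and stayed called under all 5 alternatives run. That of Mir145a was 0.09 to 0.16 and was not called under any of them (adjusted p from 0.0938 to 0.595). TMM moved all log2 ratios by 0.06 and DESeq2 size factors by 0.07. The number of genes called was 131 to 155, against 145. No paired analysis was possible because there was 1 group. Depth limits Mir145a, whose counting interval is wider than the difference between its libraries.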
